A study of Mus musculus with 12 samples.

Results

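The insulin-like growth factor (IGF) system was examined in podocytes of the mouse in culture, which in the kidney cover the glomerular capillaries as epithelial cells. It was taken as 10 genes: the ligands Igf1 and Igf2, the receptors Igf1r and Igf2r, and the binding proteins Igfbp2, Igfbp3, Igfbp4, Igfbp5, Igfbp6 and Igfbp7. The members were all probes that the platform annotation pairs with these symbols, 24 of the 45281 probes on the array. Of the 10 genes, 6 had at least 1 probe that passed the filter on dim signals (detected at p under 0.05 on 3 or more arrays) and were tested among 10258 genes.

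RNA was measured on 12 Illumina mouse arrays in 4 groups of 3. The groups were high glucose plus DZNep for 48 h, DZNep for 48 h without high glucose, high glucose for 48 h without DZNep, and a control of 48 h with neither. DZNep is an inhibitor of S-adenosylhomocysteine hydrolase that the study used to inhibit EZH2, the histone H3 lysine 27 methyltransferase. The doses, the line of podocytes and whether replicates were separate cultures are not given in the sources used here, so the p-values cover only the variation among these arrays. Precision is limited by having 3 arrays per group.

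IGF1 and IGF2 signal through IGF1R, a receptor tyrosine kinase that recruits insulin receptor substrates and activates PI3K and AKT. IGF2R, also known as the cation-independent mannose 6-phosphate receptor, takes up IGF2 for degradation and sorts lysosomal enzymes. The binding proteins hold IGFs outside the cell, where they can block or prolong receptor access, and IGF signalling is known to support the survival of cultured podocytes.

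Between 38.4% and 41.3% of probes were detected per array, and arrays correlated at 0.974 to 0.996 over the kept probes. Arrays with DZNep separated from those without it on the first principal component (46.9% of variance), and the second placed control replicate 3 away from the other arrays. Of 11 podocyte markers 7 were detected on all 12 arrays, among them Nphs1, Synpo and Podxl, while Ptpro was detected on 0 and the others were not analysed here. The endothelial markers Pecam1, Cdh5, Tie1 and Emcn and the leukocyte markers Ptprc, Itgam and Lyz2 were detected on 0 arrays, while the endothelial markers Esam and Eng and the leukocyte marker Cd14 were detected on all 12, Kdr on 11 and Laptm5 on 4. Of 8 mesangial, smooth muscle and fibroblast markers 7 were tested. The tubular markers Cdh1, Cdh16, Aqp1, Lrp2 and Slc12a1 were detected on all 12 arrays, and Umod and Slc34a1 on 0. Values below are log2 normalized intensities, after background correction with 16 added, so that differences of dim genes are understated.

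Igfbp2 and Igfbp6 carried the clearest differences. With DZNep, both without and with high glucose, Igfbp2 rose and Igfbp6 fell. Igfbp7 also fell in both settings, at 1 of its 5 probes, and each of these calls ended when some single arrays were left out. In DZNep against control 1 of the 6 tested members rose and 2 fell, where 33.9% of all tested genes passed (20.3% higher and 13.6% lower). In high glucose plus DZNep against high glucose 1 rose and 4 fell, where 24.2% of all tested genes passed (12.4% higher and 11.9% lower). The falls of Igf1r, Igf2r and Igfbp7 did not pass without high glucose replicate 2 (adjusted p = 0.0524, 0.0728 and 0.0653). Igf1r, averaged over its detected probes, changed by -0.02 there (adjusted p = 0.889), so this count depends on the arrays and probes used. In high glucose against control 0 of 6 passed (0.283% of all genes did), with 3 at an unadjusted p under 0.05 by limma, where 18.6% of all genes were. The best probe of each tested member was detected on all 12 arrays, so that none entered the test through 1 group alone.

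The stretches of 250 bases just upstream of the annotated start of the 3 binding protein genes that changed in both DZNep comparisons are shown to set these genes side by side. They come from RefSeq, build GRCm38.p6, and are written in the direction of transcription. Capitals mark each GGGCGG on either strand, the GC box motif of SP1-family factors, where the reverse strand reads CCGCCC. The windows lie at chr1:72824230-72824479 on the plus strand for Igfbp2 (the first of its 2 annotated starts), chr15:102143936-102144185 on the plus strand for Igfbp6 and chr5:77408046-77408295 on the minus strand for Igfbp7.
Igfbp2: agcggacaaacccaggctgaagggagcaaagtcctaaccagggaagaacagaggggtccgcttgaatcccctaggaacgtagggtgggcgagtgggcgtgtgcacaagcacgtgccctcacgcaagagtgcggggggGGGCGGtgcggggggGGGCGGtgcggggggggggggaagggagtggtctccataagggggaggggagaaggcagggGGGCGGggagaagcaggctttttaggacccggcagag
Igfbp6: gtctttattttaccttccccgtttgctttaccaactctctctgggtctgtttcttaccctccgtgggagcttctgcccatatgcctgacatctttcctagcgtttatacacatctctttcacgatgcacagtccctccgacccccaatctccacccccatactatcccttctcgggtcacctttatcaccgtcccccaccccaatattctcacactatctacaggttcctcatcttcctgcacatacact
Igfbp7: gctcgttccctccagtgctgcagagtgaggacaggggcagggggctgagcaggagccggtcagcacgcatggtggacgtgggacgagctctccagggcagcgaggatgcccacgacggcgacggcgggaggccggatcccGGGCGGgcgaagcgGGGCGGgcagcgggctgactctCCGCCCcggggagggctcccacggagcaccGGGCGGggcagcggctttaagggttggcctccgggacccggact
The Igfbp2 window held 3 GC boxes and the Igfbp7 window 4, while the Igfbp6 window held 0. Of 32851 such windows of mouse genes, 32.7% held at least 1. The Igfbp6 window held 1 TATAAA on either strand, as 12.4% of all windows did, and the other 2 windows held 0. GC content was 67.2% for Igfbp2, 49.6% for Igfbp6 and 74.0% for Igfbp7, against a median of 52.4% over all windows. CG dinucleotides, which every GC box also contains, numbered 14, 7 and 26 in that order, against a median of 6. At its second start Igfbp2 had 11 CG and 0 GC boxes. In the RefSeq gene order Igfbp2 lies next to Igfbp5 on chromosome 1.

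Igfbp2 encodes a secreted binding protein that carries both IGFs and has an integrin-binding motif. Its level was 7.81, 7.56 and 7.54 on the high glucose plus DZNep arrays, 7.96, 7.83 and 7.78 on the DZNep arrays, 6.23, 6.20 and 6.22 on the high glucose arrays and 6.42, 5.86 and 5.75 on the control arrays. Every array with DZNep lay above every array without it, and the groups with and without high glucose overlapped at either DZNep state. DZNep raised Igfbp2 by 1.85 over control (SE 0.147, n = 3 per group, adjusted p = 1.26e-05), a 3.59-fold difference that ranked at 4 among the 10258 tested genes from the highest. In high glucose the rise was 1.42 (SE 0.147, adjusted p = 7.94e-05), a 2.67-fold difference at rank 9. Without DZNep this probe was dim, so the size of both rises depends on the background correction. RNA of whole cultures was measured, so more RNA per cell and more cells that carry the transcript cannot be told apart, for this and every gene below.

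The other Igfbp2 probe, detected on 11 of 12 arrays, gave 6.60, 7.00 and 6.77 with high glucose plus DZNep, 7.38, 6.74 and 6.95 with DZNep, 5.70, 5.59 and 5.17 with high glucose and 6.08, 5.57 and 5.81 in control. The array below detection was in the high glucose group. DZNep again set all arrays apart: this probe rose by 1.31 in high glucose (adjusted p = 0.00105) and by 1.20 without it (adjusted p = 0.00125), in the limma fit across all 16311 detected probes with 1 gene symbol. High glucose alone changed the brighter probe by 0.21 (adjusted p = 0.471) and the other by -0.33 (adjusted p = 0.392), and neither passed. The response to DZNep differed between glucose states by -0.43 at the brighter probe (95% interval -0.88 to 0.03, adjusted p = 0.338) and by 0.10 at the other (95% interval -0.50 to 0.71), so no dependence on glucose was detectable. In high glucose plus DZNep against control Igfbp2 was 1.63 higher (adjusted p = 2.77e-05). In that comparison 1 of the 6 members rose and 2 fell, where 30.1% of all genes passed (17.1% higher and 13% lower).

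Both rises of the brighter Igfbp2 probe also passed without background correction, at 0.74 in high glucose and 0.95 without high glucose. Of the 3 of 7 endothelial markers that were tested, Esam rose by 0.98 with DZNep against control (adjusted p = 7.91e-04) and by 0.56 in high glucose (adjusted p = 0.0218). Eng rose by 0.80 (adjusted p = 0.0108) and by 0.64 (adjusted p = 0.0392), while Kdr changed by -0.20 (adjusted p = 0.571) and by 0.06 (adjusted p = 0.889). The mean level of the 3 was 6.05 to 6.49 with high glucose plus DZNep, 6.26 to 6.55 with DZNep, 5.83 to 5.98 with high glucose and 5.70 to 6.15 in control. The defining markers Pecam1 and Cdh5 were at background on every array. Of the mesangial, smooth muscle and fibroblast markers, Gata3 rose by 1.13 with DZNep against control (adjusted p = 1.74e-04) and by 0.91 in high glucose (adjusted p = 8.11e-04), and Pdgfrb rose by 0.69 (adjusted p = 0.00127) and by 0.41 (adjusted p = 0.0249). The other 5 tested markers of that list passed in neither comparison, and the mean of the 7 was 8.71 to 9.04 with high glucose plus DZNep, 8.82 to 8.85 with DZNep, 8.68 to 8.73 with high glucose and 8.44 to 8.78 in control. The leukocyte marker Laptm5 rose by 1.22 with DZNep against control (adjusted p = 0.00193), with 0.22 in high glucose (adjusted p = 0.523), and Cd14 fell by 0.24 against control (adjusted p = 0.0474). Of the 7 tested podocyte markers, Nphs1 rose by 0.22 with DZNep against control (adjusted p = 0.0205). Vim fell by 0.54 (adjusted p = 0.00265) and Cd2ap by 0.39 (adjusted p = 0.0321) in that comparison, and the other 4 did not pass. With DZNep in high glucose 0 of the 7 passed. The part of these markers in the Igfbp2 result was not tested.

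**Figure D1:**
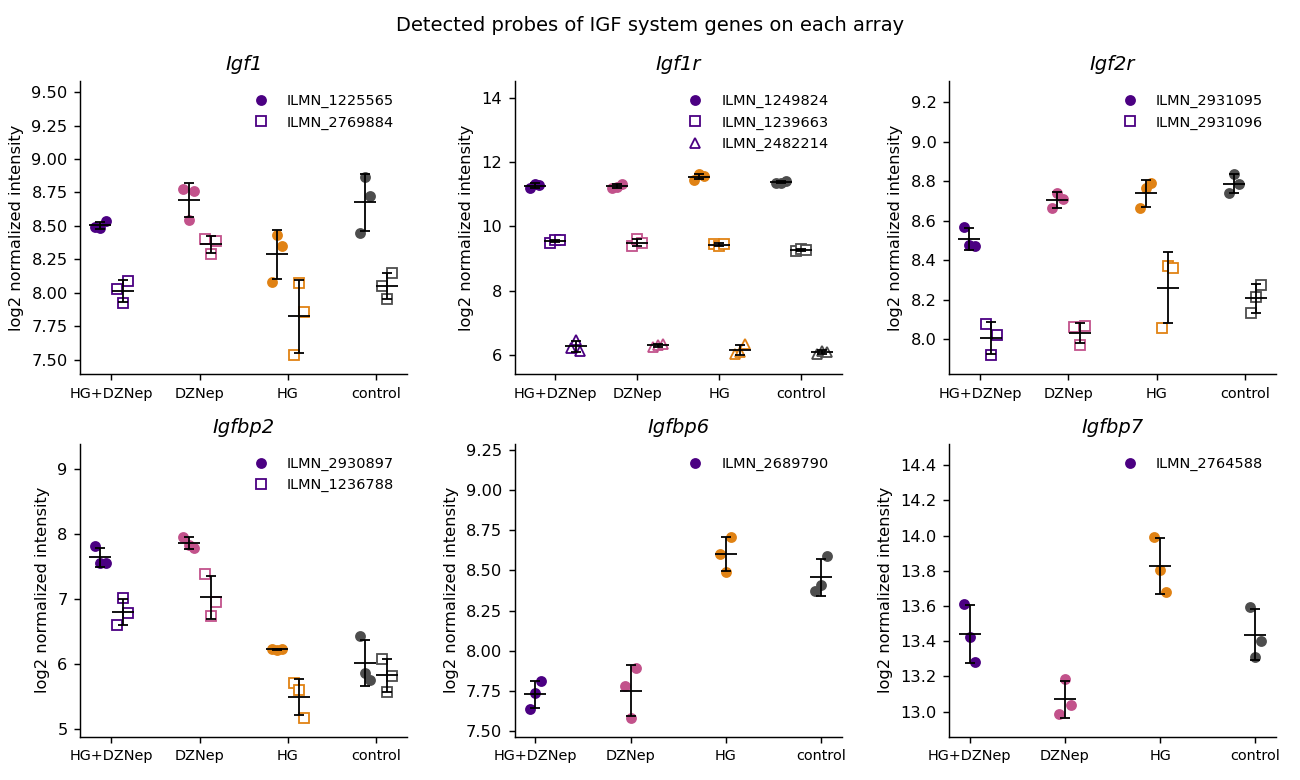
Log2 normalized intensity (vertical axis) of the 11 tested probes of 6 IGF system genes, by group (HG is high glucose), with 1 point per array, and the mean and SD of 3 arrays in black. Filled points are the brightest probe of a gene, open points its other probes. The brighter Igfbp2 probe lies at 7.54 to 7.96 on arrays with DZNep and at 5.75 to 6.42 on arrays without it, and Igfbp6 shows the opposite order.

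Igfbp6 encodes a binding protein that prefers IGF2 to IGF1. The array carries 1 probe for it, with 7.64, 7.74 and 7.81 on the high glucose plus DZNep arrays, 7.78, 7.58 and 7.89 on the DZNep arrays, 8.60, 8.49 and 8.71 on the high glucose arrays and 8.37, 8.41 and 8.59 on the control arrays. Arrays with DZNep were all lower than arrays without it. Igfbp6 fell by 0.70 against control (SE 0.0966, n = 3 per group, adjusted p = 3.76e-04) and by 0.87 in high glucose (SE 0.0966, adjusted p = 1.26e-04), to 0.614 and 0.546 of the level without DZNep. In high glucose plus DZNep against control it fell by 0.73 (adjusted p = 3.35e-04). High glucose alone changed it by 0.15 (adjusted p = 0.444) and high glucose on top of DZNep by -0.02 (adjusted p = 0.953), neither of which passed.

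Igfbp7 encodes a secreted protein of vessels and basement membranes that binds IGFs only weakly. Of its 5 probes 1 was bright and 4 were detected on 0 arrays, although the annotation pairs all 5 with the same gene. The bright probe gave 13.61, 13.42 and 13.28 with high glucose plus DZNep, 12.98, 13.19 and 13.04 with DZNep, 13.99, 13.81 and 13.68 with high glucose and 13.60, 13.31 and 13.40 in control. The groups were ordered with DZNep at the bottom, high glucose at the top, and high glucose plus DZNep and control overlapping between them. DZNep lowered Igfbp7 against control (-0.37, SE 0.112, n = 3 per group, adjusted p = 0.0265) and in high glucose (-0.39, adjusted p = 0.0275).

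With high glucose the differences of Igfbp7 had the other sign and did not pass: 0.39 against control (adjusted p = 0.115, unadjusted p = 0.00484 by limma) and 0.37 on top of DZNep (adjusted p = 0.284, unadjusted p = 0.0068 by limma). All high glucose arrays lay above all control arrays, and all high glucose plus DZNep arrays above all DZNep arrays. High glucose plus DZNep against control came to 0.003 (95% interval -0.24 to 0.25). The call against control ended without DZNep replicate 1 (-0.32, adjusted p = 0.0883) or 3 (adjusted p = 0.0683) or control replicate 1 (adjusted p = 0.0891) or 3 (adjusted p = 0.0515). The call in high glucose ended without high glucose plus DZNep replicate 2 (adjusted p = 0.0768) or 3 (adjusted p = 0.109) or high glucose replicate 1 (adjusted p = 0.103) or 2 (adjusted p = 0.0653).

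Among all tested genes, Psenen, a subunit of gamma-secretase, and Prkar2b, a regulatory subunit of protein kinase A, were most like Igfbp7 over the 12 arrays (Pearson r = 0.944 and 0.943), followed by the tubular marker Cdh16 (r = 0.937). The 12 arrays share the 4 groups, so these likenesses describe group levels. Cdh16 fell by 0.34 with DZNep against control (adjusted p = 0.00966) and by 0.27 in high glucose (adjusted p = 0.0332). Other tubular markers went the other way where they passed: Cdh1 rose by 0.62 against control (adjusted p = 0.0110) and Lrp2 rose by 0.50 in high glucose (adjusted p = 0.00401), and Aqp1 and Slc12a1 passed in neither comparison. With high glucose Aqp1 rose by 1.16 against control (adjusted p = 0.0019) and by 1.05 on top of DZNep (adjusted p = 0.00268). The other 4 tested tubular markers did not pass in those comparisons. Over the 5 of 7 tubular markers tested the mean level was 9.65 to 9.81 with high glucose plus DZNep, 9.43 to 9.50 with DZNep, 9.58 to 9.73 with high glucose and 9.37 to 9.40 in control. Umod and Slc34a1 were at background on every array, and the part of tubular markers in the Igfbp7 result was not tested.

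**Figure D2:**
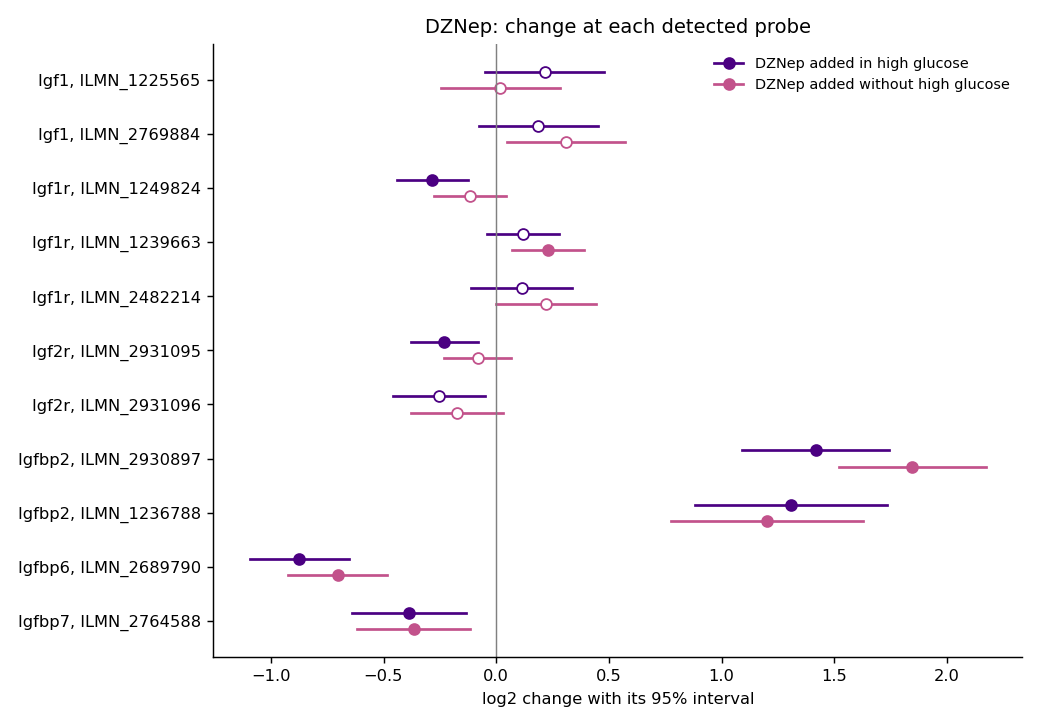
Log2 change with DZNep (horizontal axis) at the 11 tested probes, in high glucose (high glucose plus DZNep against high glucose) and without it (DZNep against control). Bars are 95% intervals and filled points passed an adjusted p under 0.05 in the fit across all detected probes. Both Igfbp2 probes lie to the right of 0 and Igfbp6 and Igfbp7 to the left, while the 3 Igf1r probes fall on both sides.

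Igf1r encodes the receptor tyrosine kinase through which both ligands signal. Its brightest probe gave 11.19, 11.32 and 11.28 with high glucose plus DZNep, 11.20, 11.23 and 11.33 with DZNep, 11.45, 11.62 and 11.56 with high glucose and 11.36, 11.36 and 11.40 in control. High glucose arrays were the highest, and both groups with DZNep lay below control. This probe fell by 0.28 with DZNep in high glucose (SE 0.0677, n = 3 per group, adjusted p = 0.0115) and changed by -0.12 against control (adjusted p = 0.212). The fall no longer passed without high glucose replicate 2 (adjusted p = 0.0524) and came to -0.02 with the mean of all detected probes (adjusted p = 0.889).

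With DZNep the other 2 tested Igf1r probes had changes of the opposite sign, and the remaining probe was detected on 0 arrays. The second probe had 9.49, 9.56 and 9.57 with high glucose plus DZNep, 9.39, 9.61 and 9.48 with DZNep, 9.44, 9.37 and 9.46 with high glucose and 9.24, 9.30 and 9.25 in control. Every treated array exceeded every control array there. It rose by 0.23 with DZNep against control (adjusted p = 0.0328) and by 0.28 in high glucose plus DZNep against control (adjusted p = 0.0161), and changed by 0.12 with DZNep in high glucose (adjusted p = 0.284). The dimmest tested probe changed by 0.11 in high glucose (adjusted p = 0.487) and by 0.22 without it (adjusted p = 0.121). The direction of Igf1r under DZNep is therefore not settled by these arrays. For high glucose against control the 3 probes changed by 0.18, 0.16 and 0.07, and 0 passed.

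Igf2r gave 8.57, 8.48 and 8.47 at its brighter probe with high glucose plus DZNep, 8.66, 8.74 and 8.71 with DZNep, 8.66, 8.76 and 8.79 with high glucose and 8.74, 8.84 and 8.78 in control. The group with both treatments was below every other array, and the other 3 groups overlapped. Igf2r fell by 0.23 with DZNep in high glucose (SE 0.0632, n = 3 per group, adjusted p = 0.0216) and by 0.28 in high glucose plus DZNep against control (adjusted p = 0.00721). DZNep alone changed it by -0.08 (adjusted p = 0.351) and high glucose alone by -0.05 (adjusted p = 0.729). The difference between the 2 DZNep responses was -0.15 (95% interval -0.35 to 0.05, adjusted p = 0.428), so a response limited to high glucose was not shown.

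The other Igf2r probe changed by -0.26 with DZNep in high glucose (adjusted p = 0.0781) and by -0.17 without it (adjusted p = 0.176), and neither passed. The call at the brighter probe in high glucose ended in the authors' processed values (-0.17, adjusted p = 0.0872). It also ended without high glucose plus DZNep replicate 2 or 3 or high glucose replicate 2 or 3 (adjusted p = 0.0768, 0.0772, 0.0728 and 0.0677).

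Igf1, the ligand induced by growth hormone in liver and made locally in many tissues, did not pass in any of the 6 comparisons. Its brighter probe had 8.49, 8.49 and 8.53 with high glucose plus DZNep, 8.77, 8.55 and 8.76 with DZNep, 8.08, 8.43 and 8.35 with high glucose and 8.44, 8.86 and 8.72 in control. All high glucose arrays lay below all control arrays, by a narrow margin, and below all high glucose plus DZNep arrays. High glucose changed it by -0.39 against control (SE 0.118, n = 3 per group, adjusted p = 0.128, unadjusted p = 0.00702 by limma) and by -0.19 on top of DZNep (adjusted p = 0.609). The other probe gave -0.23 (adjusted p = 0.341) and -0.35 (adjusted p = 0.401) for these comparisons. With DZNep the 2 probes changed by 0.02 (adjusted p = 0.925) and 0.31 (adjusted p = 0.0703) against control, and by 0.21 (adjusted p = 0.216) and 0.19 (adjusted p = 0.31) in high glucose.

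**Figure D3:**
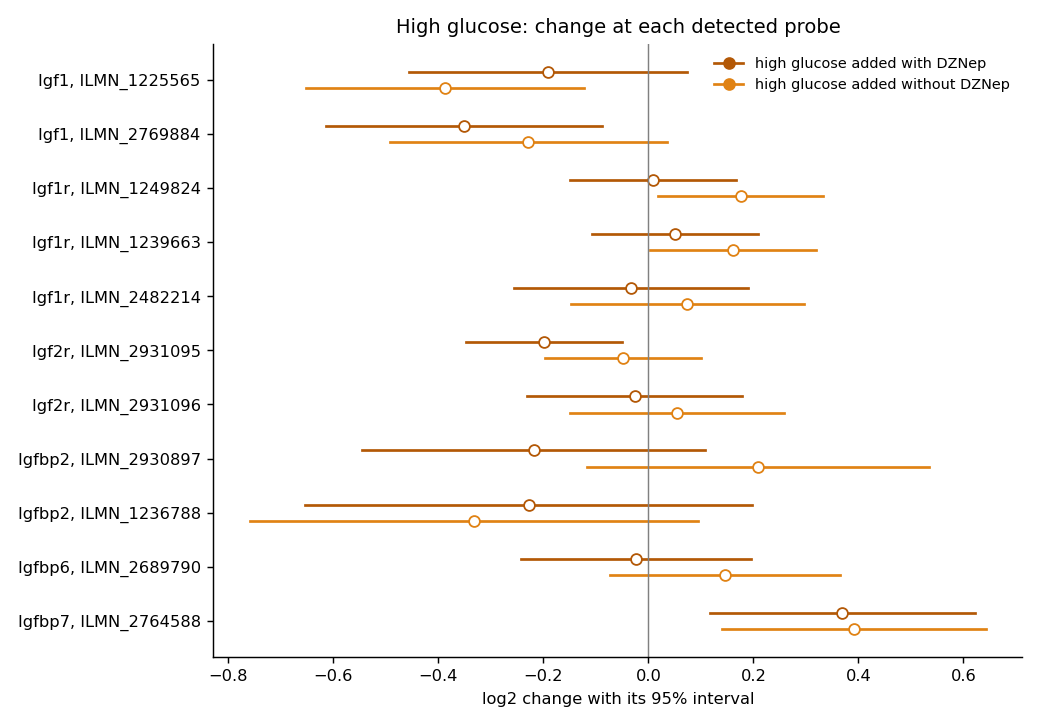
Log2 change with high glucose (horizontal axis) at the 11 tested probes, on top of DZNep (high glucose plus DZNep against DZNep) and without it (high glucose against control). Bars are 95% intervals; all points are open since 0 probes passed. Igfbp7 lies at 0.37 and 0.39 and both Igf1 probes lie below 0.

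High glucose on top of DZNep gave 0 of 6 members past the threshold, where 0.0585% of all genes passed, with Igf2r (-0.20) and Igfbp7 at an unadjusted p under 0.05 by limma, where 10.3% of all genes were. The test of whether the DZNep response depended on glucose also gave 0 of 6, where 0.0487% of all genes passed, and 0 had an unadjusted p under 0.05 by limma, where 15.8% of all genes did. Arrays did not overlap between groups for 4 of 6 members in DZNep against control, where this held for 44.6% of all genes, and for 6 in high glucose plus DZNep against high glucose, where it held for 44.4%. They did not overlap for 4 members in high glucose plus DZNep against control (45% of all genes), for 3 in high glucose against control (21%) and for 3 in high glucose plus DZNep against DZNep (18.9%). For DZNep against control, DZNep in high glucose and high glucose against control, the median change of the 6 members was -0.10, -0.26 and 0.16 in that order, against 0.05, 0.007 and 0.03 over all genes.

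Over the 12 arrays the levels of Igfbp2 and Igfbp6 had a Pearson r of -0.944, the strongest of the 15 pairs of members. Next in size were Igf1r and Igfbp6 at 0.838 and Igf1 and Igfbp7 at -0.835. These values describe arrays that share the 4 groups and carry no test. They use the brightest probe of each gene, and the other tested Igf1r probes changed in the opposite direction with DZNep. The genes most like Igfbp2 were Serinc3, a membrane protein known to restrict retroviruses (r = 0.991), Limk2, a kinase of cofilin (r = 0.984), and Scmh1, a Polycomb group protein (r = 0.983). The genes most like Igfbp6 were Ndufa6, a subunit of respiratory complex I (r = 0.977), Asxl1, a chromatin regulator (r = 0.976), and Loxl1, a matrix crosslinking enzyme (r = 0.970).

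The remaining members, Igf2, Igfbp3, Igfbp4 and Igfbp5, had no probe detected on 3 or more arrays and were not tested. Igf2, the fetal ligand expressed from an imprinted locus, has 1 probe, detected on 2 of 12 arrays (high glucose plus DZNep replicate 3 and high glucose replicate 1). It gave 5.43, 5.40 and 5.48 with high glucose plus DZNep, 5.05, 5.02 and 5.04 with DZNep, 5.49, 5.21 and 5.38 with high glucose and 5.02, 5.12 and 5.11 in control. All arrays with high glucose exceeded all arrays without it, at levels near the lowest value of a detected probe, which was 5.32 to 5.52 across arrays.

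With no filter on dim probes, Igf2 was 0.35 higher in high glucose plus DZNep than in control (adjusted p = 0.00965). Its differences for high glucose were then 0.40 on top of DZNep (adjusted p = 0.131) and 0.28 against control (adjusted p = 0.166), which did not pass. Since most of these values lie below detection, they bound a level rather than measure it. The raw intensities do not show the same order: they were 148.5 to 151.5 with high glucose plus DZNep, 137.0 to 141.4 with DZNep, 146.6 to 152.9 with high glucose and 144.0 to 152.3 in control.

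Igfbp5, a binding protein that attaches to matrix, has 3 probes, of which 1 was detected on 1 array (DZNep replicate 3). That probe gave 4.97, 5.23 and 5.11 with high glucose plus DZNep, 5.18, 5.08 and 5.73 with DZNep, 4.95, 4.72 and 4.92 with high glucose and 4.85, 4.93 and 4.81 in control. Arrays with DZNep were all above arrays without it, and with no filter the difference between DZNep and control was 0.47 (adjusted p = 0.0455), which did not pass when all its probes entered (adjusted p = 0.0554). Its other probes were detected on 0 arrays. Igfbp3, the main carrier of IGFs in blood, had a probe detected on 1 array (high glucose plus DZNep replicate 2) and another on 0. Igfbp4, which the protease PAPPA cleaves, had 2 probes detected on 0 arrays. In the fit without a filter neither passed in any of the 6 comparisons.

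**Figure D4:**
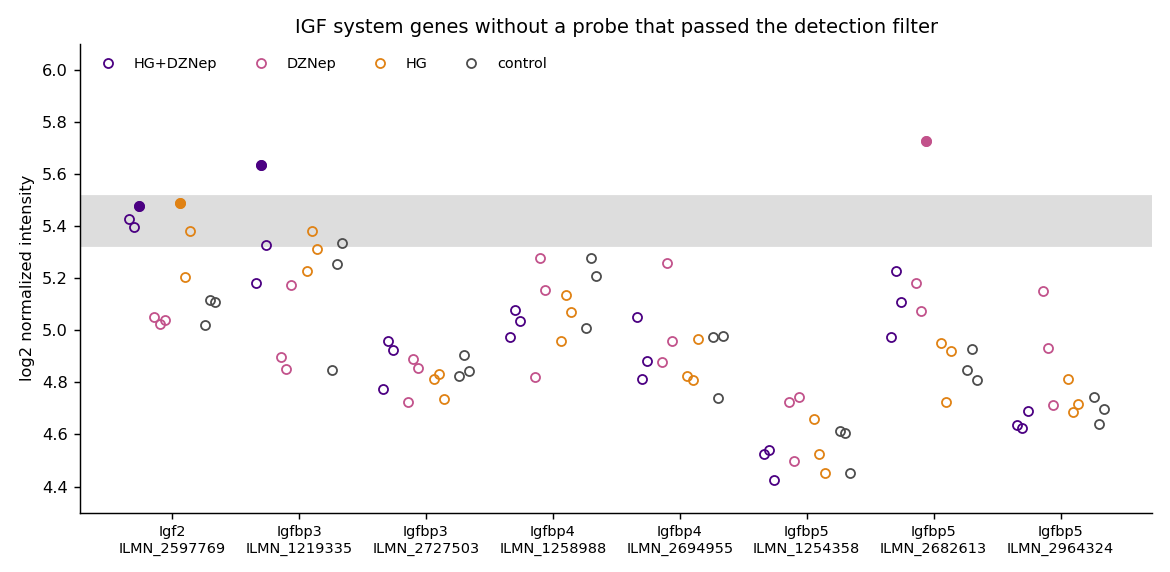
Log2 normalized intensity (vertical axis) of the 8 probes of Igf2, Igfbp3, Igfbp4 and Igfbp5 on each array, in the order high glucose plus DZNep, DZNep, high glucose (HG) and control from left to right within a probe. Filled points were detected (detection p under 0.05), and the grey band spans the lowest value of a detected probe on each array, 5.32 to 5.52. Only 4 points are filled: 2 for Igf2 and 1 each for Igfbp3 and Igfbp5.

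Other proteins that carry IGFs, cleave the binding proteins or restrain those proteases were set beside the members. Of 17 such genes 7 were tested. With DZNep against control 1 rose and 1 fell, with a median change of -0.09, and in high glucose 2 rose and 2 fell, with a median of 0.06, where the medians over all genes were 0.05 and 0.007. The shares of all tested genes that passed were 33.9% against control and 24.2% in high glucose. Stc2, which encodes stanniocalcin-2, an inhibitor of PAPPA proteases, rose by 0.59 against control (adjusted p = 4.62e-04) and by 0.64 in high glucose (adjusted p = 3.71e-04). Htra1, a secreted serine protease known to cleave IGFBP5, fell by 0.44 (adjusted p = 4.58e-04) and by 0.52 (adjusted p = 2.12e-04), and its other probe also fell in both. Without high glucose plus DZNep replicate 2 or 3 or high glucose replicate 2, 1 rose and 1 fell in high glucose.

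Of 22 genes of the receptor family and its adaptors 16 were tested, of which 4 rose and 3 fell with DZNep against control and 3 rose and 4 fell in high glucose. The 7 of 16 that passed in each comparison stand beside 33.9% and 24.2% of all genes, and the median changes were 0.10 and 0.03. Irs2, the insulin receptor substrate that couples IGF1R to PI3K, rose by 0.89 against control (adjusted p = 7.96e-05) and by 0.70 in high glucose (adjusted p = 4.75e-04). Grb7, an adaptor of receptor kinases, rose by 0.76 (adjusted p = 4.63e-04) and by 0.50 (adjusted p = 0.00658). Nedd4, a ubiquitin ligase, fell by 0.58 (adjusted p = 4.57e-04) and by 0.44 (adjusted p = 0.00288). Sh2b2, another adaptor, rose by 1.35 and 1.13 at its brighter probe, while the dimmer one gave 0.15 (adjusted p = 0.585) and 0.24 (adjusted p = 0.416), neither of which passed.

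Downstream, 23 of 30 genes of PI3K, AKT and mTOR signalling were tested, of which 6 rose and 4 fell with DZNep against control and 2 rose and 3 fell in high glucose. The 10 and 5 of 23 that passed stand beside 33.9% and 24.2% of all genes, so that the count in high glucose is near the background share. Their median changes were 0.13 and 0.08. Deptor, an inhibitor of mTOR, fell by 0.56 (adjusted p = 4.97e-04) against control and by 0.51 (adjusted p = 0.00109) in high glucose. Rps6, the ribosomal protein phosphorylated by S6 kinases, fell by 0.69 against control (adjusted p = 0.00181) and changed by -0.18 in high glucose (adjusted p = 0.33). Tsc1, a subunit of the mTOR-restraining TSC complex, rose by 0.95 and 0.89 at 1 probe, while the changes at its other 2 probes, from -0.09 to 0.13, did not pass. In high glucose 2 rose and 1 fell without any 1 high glucose plus DZNep array or without high glucose replicate 2.

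Of 17 FoxO factors and genes known as FoxO targets in other cells 13 were tested. With DZNep 4 rose and 4 fell against control, and 2 rose and 5 fell in high glucose, with median changes of -0.12 and -0.19. These are 8 and 7 of 13 genes, beside 33.9% and 24.2% of all genes. Cited2, a transcriptional coregulator, rose by 0.65 against control (adjusted p = 1.30e-04) and by 0.83 in high glucose (adjusted p = 3.63e-05), and its other 2 probes rose by 1.19 to 1.53. Foxo3, which AKT phosphorylates and keeps from the nucleus, rose by 0.63 against control (adjusted p = 0.00213) and by 0.43 in high glucose (adjusted p = 0.0216), and Sod2, mitochondrial superoxide dismutase, fell by 0.32 (adjusted p = 0.00835) and by 0.38 (adjusted p = 0.00451). Against control 2 rose and 3 fell without control replicate 3 or DZNep replicate 1. In high glucose the count was 2 and 2 without high glucose plus DZNep replicate 2 or high glucose replicate 2, 1 and 3 without high glucose replicate 1, and 1 and 1 when replicate 3 of high glucose plus DZNep was left out.

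Of 12 genes of the mannose 6-phosphate pathway, in which IGF2R sorts lysosomal enzymes, all 12 were tested. With DZNep 1 rose and 3 fell against control, and 0 rose and 2 fell in high glucose, with median changes of -0.10 and -0.03. These counts of 4 and 2 of 12 are near or below the 33.9% and 24.2% of all genes that passed. Gga1, an adaptor that binds the tail of the receptor, rose by 0.37 against control (adjusted p = 0.00963), with 0.38 at its other probe (adjusted p = 0.0572), and changed by -0.01 in high glucose (adjusted p = 0.954). M6pr, the cation-dependent receptor, fell by 0.29 against control (adjusted p = 0.0415) and changed by -0.27 in high glucose (adjusted p = 0.0747). Without control replicate 2 the counts against control were 1 and 1, and in high glucose they were 0 and 0 without any 1 array of high glucose plus DZNep or of high glucose, and 0 and 1 with arrays centred on their medians. Of 7 genes listed as IGF2 mRNA binding proteins or locus neighbours 3 were tested (median changes 0.29 and -0.05). Igf2bp1 and Igf2bp3 passed in neither comparison. Khdrbs1, an RNA-binding protein whose binding to IGF2 mRNA was not examined here, fell by 0.67 against control (adjusted p = 9.31e-04). In high glucose Khdrbs1 fell by 0.42 (adjusted p = 0.0169). Its call in high glucose ended without replicate 1 of either group compared.

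For high glucose against control 0 genes of these 6 other lists passed. By limma an unadjusted p under 0.05 was found for 0 of 7 carriers and proteases, 2 of 16 receptor and adaptor genes, 3 of 23 PI3K, AKT and mTOR genes, 2 of 13 FoxO genes, 3 of 12 mannose 6-phosphate genes and 0 of 3 IGF2 mRNA binding or neighbour genes, where 18.6% of all genes had one. The smallest adjusted p was 0.0933, for Inppl1, a lipid phosphatase (0.29), followed by Ptpn1, a tyrosine phosphatase of the insulin receptor (0.62, adjusted p = 0.113).

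**Figure D5:**
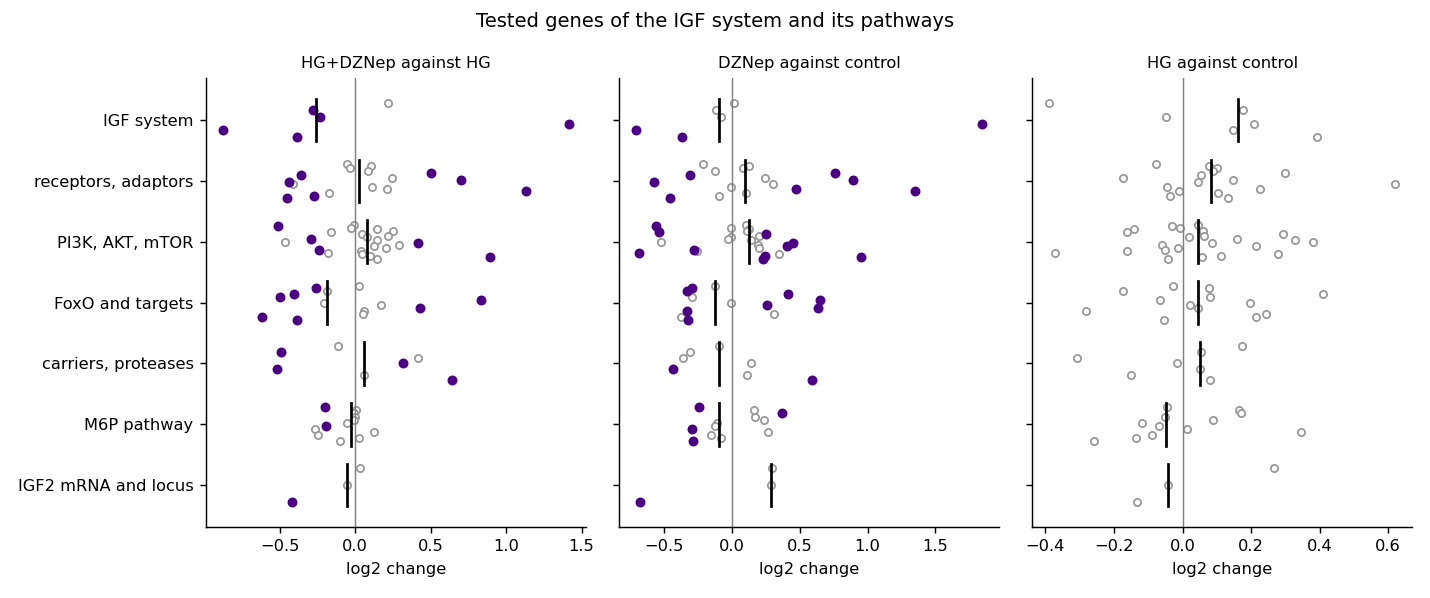
Log2 change (horizontal axis) of each tested gene in the IGF system and 6 other lists, in 3 comparisons (HG is high glucose, M6P mannose 6-phosphate). Filled points passed an adjusted p under 0.05, and black bars are list medians. In both DZNep panels Igfbp2 is the point farthest to the right, and no point is filled for high glucose against control.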

How the data were processed

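RNA of cultured podocytes was hybridised to 12 arrays, grouped by the labels. The authors deposited raw probe intensity values, not normalized, and a detection p-value for each, per the file headers. The submitters' processing notes name GenomeStudio without a version. A deposited table of the authors' processed intensity values, linear in the raw ones on each array, served as an alternative.

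The neqc function of limma 3.58.1 in R 4.3.3 corrected the background (normexp with the detection p-values, 16 added), normalized by quantiles and took log2. Of 45281 probes 34885 had 1 gene symbol, 18 several and 10378 none. The brightest probe that passed the detection filter (p under 0.05 on 3 or more arrays) stood for a gene. Group means were fitted with lmFit and eBayes (11.3 degrees of freedom, residual plus prior), with Benjamini-Hochberg adjustment over 10258 genes at 0.05. Other probes come from a fit across 16311 probes. SE and 95% intervals come from these fits. Scripts were tested on simulated data.

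The members and lists were chosen with earlier results of these data known. Named are all members, from each other list up to 4 genes that passed with the smallest adjusted p per comparison (or 1 with the smallest p), and the 3 genes most correlated with each member that passed. Alternatives varied background, offset, centring, filter, probe choice, value source, arrays in the fit, weights, replicate block and each array left out. Promoter windows were matched by symbol for all 10 members in RefSeq (GRCm38.p6).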

Additional observations from a re-analysis of the deposited data

How the results depend on the processing

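Each of the 36 changes of the 6 tested members was recomputed under the alternatives, 822 values in all: 806 kept their direction where called and their side of the threshold, 15 lost a call, 1 gained one and 0 reversed. The calls of Igfbp2 and Igfbp6 with DZNep held in each alternative run. For high glucose against control the count of changed members was 1 in place of 0 with quantile normalization and no background correction (Igfbp7, 0.39, adjusted p = 0.0364). For DZNep in high glucose the count was 2 to 5 with 1 array left out in turn, namely 2 without high glucose replicate 2 and 3 without replicate 2 or 3 of high glucose plus DZNep; for DZNep against control it was 2 to 3. With no filter it was 4 for DZNep against control (Igfbp5 added) and 4 for high glucose plus DZNep against control (Igf2 added). With the replicate number as a block the counts were 3 for DZNep against control, 5 for DZNep in high glucose, 3 for high glucose plus DZNep against control and 0 otherwise, as without the block. In the other lists the block took the count of mannose 6-phosphate genes for DZNep in high glucose to 0 in place of 2 and moved no other count by over 1.5 times. The labels do not say whether the replicate numbers mark a shared culture or day. The 18 same-numbered pairs correlated at -0.182 to 0.215, 2 of them over 0.1, and 3 of 12 arrays correlated best with their own number. Such correlations cannot decide whether same-numbered arrays were paired. Fitting only the compared arrays does not apply to the interaction. The same alternatives were applied to the other lists after seeing the data. Signal over background limits Igf2, Igfbp3, Igfbp4 and Igfbp5. Without DZNep the brighter Igfbp2 probe was also dim, at 5.75 to 6.42, where the lowest value of a detected probe was 5.32 to 5.52 across arrays. The size of its rise therefore depends on the background correction, as given above.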

Other observations

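At their brightest probes Igf1r and Igf2r were most like genes of other kinds over the 12 arrays. For Igf1r these were Lrig1, a membrane protein that restrains receptor kinases (Pearson r = 0.938), Tsen34 (r = 0.937) and Pou6f1 (r = 0.933). For Igf2r they were Gpd2, mitochondrial glycerol phosphate dehydrogenase (r = 0.939), Tlr4, the lipopolysaccharide receptor (r = 0.915), and Blvra, biliverdin reductase (r = 0.913). Of the 14 upstream windows of the 10 members, which include 4 annotated starts of Igf2 and 2 of Igfbp2, 6 held a GC box and 2 held TATAAA. Of the genes next to members in the RefSeq order, Igfbp1 lies beside Igfbp3 on chromosome 11 and Ins2 beside Igf2 on chromosome 7.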
